A study of Homo sapiens with 5 samples.

Results

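Integrins and laminins were described as a set of 39 genes out of the 57905 in a deposited expression table. The genes were taken by symbol (ITGA, ITGB, LAMA, LAMB and LAMC genes), by a rule that used no levels. The set itself was chosen with earlier results of these data known. The genes comprised 27 integrin rows for 26 symbols (18 α and 8 β subunits) and 12 laminin rows (5 α, 4 β and 3 γ chains). ITGB3 held 2 rows, and values below refer to the main one (ENSG00000259207), since the other (ENSG00000259753) reached 0.248 TPM in MKL-1 and was listed at 0 elsewhere. RNA was sequenced from 5 human cell lines, with 1 library per line. MCC13, MKL-1, MKL-2 and WaGa are labelled as Merkel cell carcinoma, a neuroendocrine skin cancer (n = 4), and REH as pre-B-cell acute lymphoblastic leukemia (n = 1). All 5 lines are labelled wild type and were grown in RPMI medium with serum, and the labels used here name no treatment. Levels are TPM, which is scaled by transcript length and to the same total in every library, so genes can be compared within a line. The read depth behind the values was unknown.

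Integrins are cell surface receptors made of an α and a β subunit, and the pair decides what the receptor binds, such as collagen, laminin, fibronectin or counter-receptors on other cells. Laminins are trimers of an α, a β and a γ chain that form the sheet of the basement membrane, and they are among the main ligands of integrins. Laminin chains are assembled into trimers inside the cell before secretion, and an α subunit of an integrin reaches the surface only with a β partner. Merkel cells sit in the basal epidermis, where α6β4 integrin and its laminin ligand anchor cells to the dermis, while β2 and α4 integrins are known from leukocytes.

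The labels were checked against marker genes. WaGa, MKL-2 and MKL-1 held 10 or 11 of 11 Merkel cell carcinoma markers at 1 TPM or more, whereas MCC13 held 3 (KRT8, KRT18 and SYP), with ATOH1, INSM1, ISL1 and KRT20 listed at 0, so that the markers went against the label of this line. Of 9 mesenchymal markers, 6 reached 1 TPM in MCC13, 5 in WaGa, 3 in MKL-2, 4 in MKL-1 and 3 in REH. Their summed level was 3732 TPM in MCC13, against 11.7 to 42.0 TPM in WaGa, MKL-2 and MKL-1 and 794 TPM in REH. Vimentin, VIM, made up 3125 TPM of that sum in MCC13 and 724 TPM in REH. DCN went the other way, at 0.186 TPM in MCC13, 18.9 TPM in WaGa, 2.08 TPM in MKL-2 and 25.1 TPM in MKL-1. COL3A1 and LUM were at or below 0.232 TPM in every line. REH held 8 of 9 precursor B-cell markers. The number of genes at 1 TPM or more lay between 15949 and 16921 per line, and mitochondrially encoded genes took 3.52% of the total in MCC13, 6.37% to 7.84% in WaGa, MKL-2 and MKL-1 and 0.783% in REH. The part of these differences in the results below was not tested. In RNA from whole cultures, fewer cells with a transcript and less of it per cell cannot be told apart.

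Of the 39 genes, 29 reached 1 TPM in at least 1 line, and 9 did so in all 5. The remaining 10 stayed at or below 0.745 TPM: ITGA8, ITGA9, ITGAD, ITGAL, ITGAX, ITGB6, ITGB8, LAMA2, LAMB4 and the second ITGB3 row. ITGA8 was listed at 0 in every line. Of the 39 genes, 15 overlap another gene at 1 TPM or more, and whether reads were assigned by strand was not given. Some opposite-strand neighbours exceeded the member in every line: GALK1 for ITGB4, ZNF740 for ITGB7, BLOC1S1 for ITGA7 and ADRM1 for LAMA5. Their part in the values of these members was not tested. Integrin genes summed to 1734 TPM in MCC13, 269.7 TPM in WaGa, 198 TPM in MKL-2, 322 TPM in MKL-1 and 451 TPM in REH. Laminin genes summed to 915 TPM in MCC13, 269.8 TPM in WaGa, 105 TPM in MKL-2, 249 TPM in MKL-1 and 47.1 TPM in REH. MCC13 therefore held the largest total of both families among these 5 libraries, and REH the smallest laminin total with an integrin total above those of WaGa, MKL-2 and MKL-1.

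**Figure D1:**
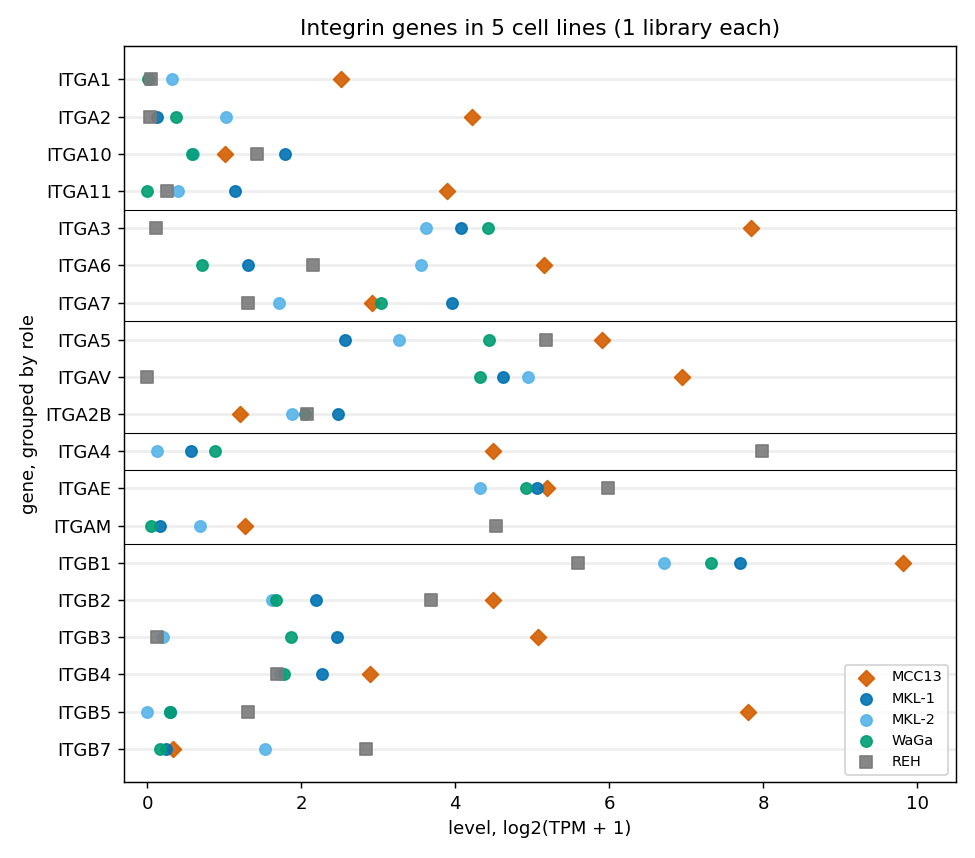
Levels of the 19 integrin genes that reached 1 TPM in any line, as log2(TPM + 1) on the horizontal axis, with 1 symbol per line (1 library each). Genes are grouped from top to bottom as collagen-binding α, laminin-binding α, RGD-binding α, α4, leukocyte α and β subunits. ITGB1 is the highest integrin gene in MCC13, WaGa, MKL-2 and MKL-1, and ITGA4 in REH.

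The 4 Merkel cell carcinoma lines were first compared with one another, each line against the other 3, on the scale log2(TPM + 1) with limma over all 20698 genes that reached 1 TPM in any of them (Benjamini-Hochberg adjusted p under 0.05). In MCC13, 9 of the 29 tested members were higher and 1 was lower, against 8.95% of all tested genes called in either direction (6.47% higher and 2.47% lower). Those called higher included ITGA1, ITGA2, ITGA3, ITGA4 and ITGB5 among the integrins and LAMA1, LAMB2 and LAMC3 among the laminins, and LAMA3 was lower. The median of the members was 2.399 on this scale, beside -0.30 over all tested genes. MCC13 had the highest value of the 4 lines for 22 of the 29 members, beside 27.7% of all tested genes, and the lowest for 4, beside 43.4%. Of the 29 members, 6 passed the filter on low values through MCC13 alone, and 5 of those 6 were called. These counts therefore describe the members and are no support for a difference. The 6 were ITGA1, ITGA4, ITGAM, ITGB5, LAMA1 and LAMC3, and of these ITGAM was not called. Their p values below carry the same limit. No member was called in WaGa, MKL-2 or MKL-1 (limma, 0 of all genes in each), where 0, 2 and 0 members, in that order, had an unadjusted p under 0.05. The shares of all tested genes at that limit were 2.26%, 3.08% and 1.43%, in the same order.

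**Figure D2:**
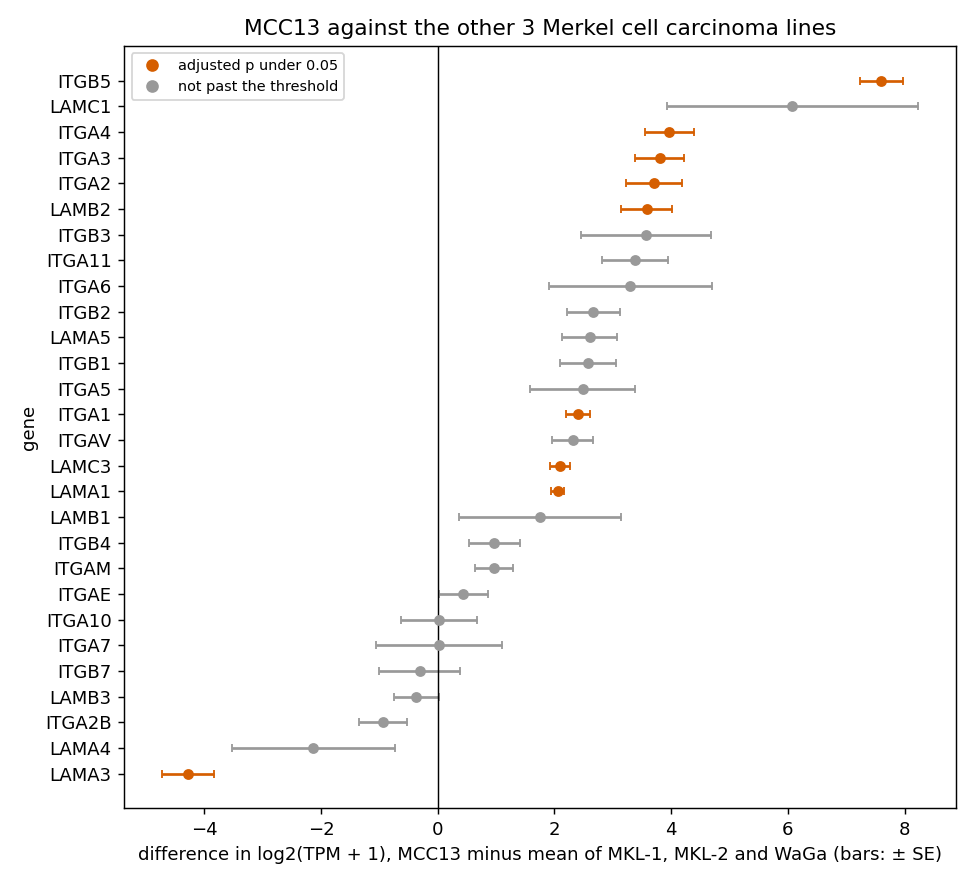
Differences in log2(TPM + 1) for 28 of the tested members, MCC13 minus the mean of WaGa, MKL-2 and MKL-1, with bars of ± 1 SE from the limma fit. Orange points passed the adjusted p threshold: 8 lie to the right of 0 and LAMA3 lies to the left.

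When WaGa, MKL-2 or MKL-1 was dropped, none of the 10 calls passed (limma, lowest adjusted p of a member 0.0893 to 0.133, with 15 to 20 members at unadjusted p under 0.05). Over all tested genes none passed in these fits either, so this loss was not particular to the members. MCC13 is a single library whose spread was assumed to equal that of the other 3. With 1 line set against 3, the smallest p of an exact permutation test is 0.25.

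Among β subunits, ITGB1, the partner of most α subunits, was the most abundant integrin gene in the Merkel cell carcinoma lines, at 903 TPM in MCC13, 159.8 TPM in WaGa, 103 TPM in MKL-2 and 207 TPM in MKL-1, against 47.2 TPM in REH. MCC13 lay above the other 3, but the difference did not pass (2.57 ± 0.48 (SE), limma, adjusted p = 0.081). ITGB1P1, a processed pseudogene with a sequence near to that of ITGB1, stood at 18.3% to 20.6% of the ITGB1 level in all 5 lines, so reads may be divided between the 2 rows and the level of ITGB1 is uncertain by about that share.

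ITGB5 (ENSG00000082781), which pairs with αV to bind vitronectin, stood at 222 TPM in MCC13, 0.230 TPM in WaGa, a listed 0 in MKL-2, 0.229 TPM in MKL-1 and 1.47 TPM in REH. Its gap between MCC13 and the other 3 lines was the largest of the members on the log2(TPM + 1) scale (7.60 ± 0.37 (SE), limma, adjusted p = 0.00855). ITGB5 passed the filter on low values through MCC13 alone, so the filter favoured this difference. ITGB3, the other common partner of αV and the platelet partner of αIIb, stood at 32.7 TPM in MCC13, 2.65 TPM in WaGa, 0.147 TPM in MKL-2, 4.50 TPM in MKL-1 and 0.086 TPM in REH. The 3 lower Merkel cell carcinoma lines spread widely for ITGB3, and its difference did not pass (3.57 ± 1.11 (SE), limma, adjusted p = 0.173).

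ITGB4, the hemidesmosome subunit, was not called between MCC13 and the other 3 (limma, adjusted p = 0.273), at 6.42 TPM in MCC13, 2.42 TPM in WaGa, 2.30 TPM in MKL-2, 3.80 TPM in MKL-1 and 2.21 TPM in REH. ITGB2, the shared β chain of leukocyte integrins, stood at 21.5 TPM in MCC13, 2.17 TPM in WaGa, 2.08 TPM in MKL-2, 3.57 TPM in MKL-1 and 11.9 TPM in REH. MCC13 thus exceeded the leukemia line for ITGB2, although the difference from the other 3 Merkel cell carcinoma lines did not pass (limma, adjusted p = 0.0688). The antisense gene ITGB2-AS1, which lies inside ITGB2, was also highest in MCC13 (7.26 TPM, against at most 0.110 TPM in the other lines). ITGB7, the partner of α4 and αE on lymphocytes, was near 0 in MCC13 (0.263 TPM), MKL-1 (0.187 TPM) and WaGa (0.120 TPM), and higher in MKL-2 (1.88 TPM) and in REH (6.19 TPM).

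Of the laminin-binding α subunits, ITGA3 was higher in MCC13 and ITGA6 and ITGA7 were not called. ITGA3, which pairs with β1 and binds the α3 and α5 laminins, stood at 228 TPM in MCC13, 20.5 TPM in WaGa, 11.3 TPM in MKL-2, 15.9 TPM in MKL-1 and 0.079 TPM in REH. The difference of MCC13 from the other 3 was 3.80 ± 0.43 (SE, limma, adjusted p = 0.0293), with no overlap. ITGA6, which pairs with β1 or β4, stood at 34.6 TPM in MCC13, 0.635 TPM in WaGa, 10.7 TPM in MKL-2, 1.47 TPM in MKL-1 and 3.45 TPM in REH (limma, adjusted p = 0.257). ITGA7, known as the laminin receptor of muscle, had another order, with 6.55 TPM in MCC13, 7.23 TPM in WaGa, 2.26 TPM in MKL-2, 14.5 TPM in MKL-1 and 1.48 TPM in REH. For ITGA7 the value of MCC13 lay within the range of the other 3.

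Apart from ITGA10, the collagen receptors were highest in MCC13 and at most 1.21 TPM elsewhere. ITGA2, the platelet and epithelial collagen receptor, stood at 17.5 TPM in MCC13, 0.291 TPM in WaGa, 1.04 TPM in MKL-2, 0.086 TPM in MKL-1 and 0.024 TPM in REH (MCC13 against the other 3: 3.71 ± 0.49 (SE), limma, adjusted p = 0.0405). ITGA1, its neighbour on chromosome 5 with no protein-coding gene between, stood at 4.71 TPM in MCC13, 0.0052 TPM in WaGa, 0.243 TPM in MKL-2, 0.016 TPM in MKL-1 and 0.032 TPM in REH (2.399 ± 0.21 (SE), limma, adjusted p = 0.0174). With a pseudocount of 0.1 in place of 1 neither passed (limma, adjusted p = 0.113 for ITGA2 and 0.0769 for ITGA1). ITGA1 passed the filter on low values through MCC13 alone, so the filter favoured its difference. PELO, a gene on the same strand inside ITGA1, was more abundant than ITGA1 in every line. It stood at 24.7 TPM in MCC13, 8.60 to 21.8 TPM in WaGa, MKL-2 and MKL-1 and 10.2 TPM in REH, and its part in the ITGA1 values was not tested. ITGA11, a fibroblast collagen receptor, stood at 13.9 TPM in MCC13, a listed 0 in WaGa, 0.320 TPM in MKL-2, 1.21 TPM in MKL-1 and 0.188 TPM in REH, and did not pass (limma, adjusted p = 0.066). ITGA10, the cartilage collagen receptor, stood at 1.01 TPM in MCC13, 0.496 TPM in WaGa, 0.508 TPM in MKL-2, 2.46 TPM in MKL-1 and 1.69 TPM in REH, with MCC13 inside the range of the others.

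Of the α subunits that bind the RGD motif of matrix proteins, none was called (limma, MCC13 against the other 3). An unadjusted p under 0.05 was reached by 1 of 3, beside 26.6% of all tested genes. ITGAV stood at 122 TPM in MCC13, 19.03 TPM in WaGa, 29.9 TPM in MKL-2 and 23.6 TPM in MKL-1, and was listed at 0 in REH. MCC13 lay above the other 3 lines, but the difference did not pass (2.31 ± 0.35 (SE), limma, adjusted p = 0.0552). ITGA5, the fibronectin receptor subunit, stood at 59.1 TPM in MCC13, 20.7 TPM in WaGa, 8.66 TPM in MKL-2, 4.95 TPM in MKL-1 and 35.1 TPM in REH, so that REH fell between MCC13 and WaGa. ITGA2B, the platelet subunit, was lowest in MCC13 at 1.297 TPM, with 3.13 TPM in WaGa, 2.69 TPM in MKL-2, 4.55 TPM in MKL-1 and 3.22 TPM in REH. The platelet genes PF4, PPBP and GP9 were listed at 0 in all 5 lines.

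The lymphocyte subunit ITGA4 (ENSG00000115232), which pairs with β1 or β7 and binds VCAM1 and fibronectin, was the most abundant integrin gene in REH. It stood at 21.5 TPM in MCC13, 0.839 TPM in WaGa, 0.094 TPM in MKL-2 and 0.484 TPM in MKL-1, against 251 TPM in REH. MCC13 was higher than the other 3 Merkel cell carcinoma lines (3.97 ± 0.42 (SE), limma, adjusted p = 0.0264), a call that was lost with a pseudocount of 0.1 (limma, adjusted p = 0.0947). ITGA4 passed the filter on low values through MCC13 alone, so the filter favoured this difference. In MCC13 the ITGA4 ligand VCAM1 stood at 5.21 TPM, and in WaGa, MKL-2 and MKL-1 it was listed at 0. In REH, where ITGA4 was highest, VCAM1 was at 0.0005 TPM.

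The levels of the α subunits that can pair with β1 were then set beside ITGB1. In the Merkel cell carcinoma lines the 12 α partners summed to less than ITGB1, at 509 TPM and 0.564 times the ITGB1 level in MCC13, 64.9 TPM and 0.313 times in MKL-1, 65.3 TPM and 0.631 times in MKL-2, and 69.97 TPM and 0.438 times in WaGa. In REH the order was turned round, with 293 TPM of α partners against 47.2 TPM of ITGB1, or 6.22 times its level. ITGA4 alone was at 5.33 times ITGB1 in REH, and the sum of both its β partners, ITGB1 and ITGB7, was 53.4 TPM. Of 24 textbook αβ pairs, both genes were at 1 TPM or more for 15 pairs in MCC13, 6 in WaGa, 8 in MKL-2, 10 in MKL-1 and 9 in REH. At 5 TPM or more the numbers were 11 in MCC13, 4 in WaGa, 4 in MKL-2, 3 in MKL-1 and 5 in REH. αVβ5 met the threshold of 1 TPM in MCC13 alone, and α4β7 and αEβ7 at 5 TPM or more in REH alone.

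**Figure D3:**
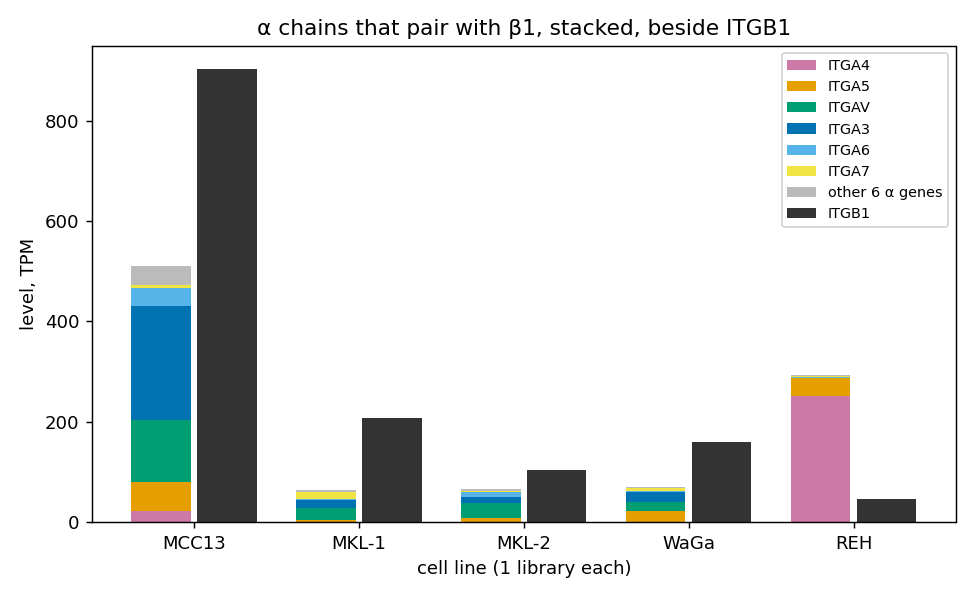
Levels in TPM (vertical axis) of the 12 α subunits known to pair with β1, stacked, beside ITGB1 (dark bars) in each line, with 1 library per line. ITGB1 exceeds the α sum in MCC13, WaGa, MKL-2 and MKL-1, whereas in REH the α sum of 293 TPM, mostly ITGA4, exceeds ITGB1 at 47.2 TPM.

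The laminin chains differed between lines in a way that left trimers incomplete. The γ1 chain LAMC1 (ENSG00000135862), shared by most laminins, stood at 183 TPM in MCC13, 0.0997 TPM in WaGa, 17.1 TPM in MKL-2, 0.021 TPM in MKL-1 and 15.4 TPM in REH. MKL-1 and WaGa thus lay far below MKL-2, and with this spread the difference of MCC13 from the other 3 did not pass (6.08 ± 2.15 (SE), limma, adjusted p = 0.205). The β1 chain LAMB1, its usual partner, went another way, at 319 TPM in MCC13, 189 TPM in WaGa, 26.8 TPM in MKL-2, 159 TPM in MKL-1 and 3.14 TPM in REH. In MKL-1 and WaGa, LAMB1 was the second highest and the highest of all members, while LAMC1 was below 0.11 TPM. In MKL-2, LAMB1 was lower than in the other 3 at an unadjusted p of 0.00476 that did not hold after adjustment (-2.94 ± 0.54 (SE), limma, adjusted p = 0.878).

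The γ3 chain LAMC3 was low throughout, at 3.62 TPM in MCC13, 0.018 TPM in WaGa, 0.188 TPM in MKL-2, 0.034 TPM in MKL-1 and 0.743 TPM in REH (2.10 ± 0.17 (SE), limma, adjusted p = 0.0153, and 0.056 with a pseudocount of 0.1). MCC13 was thus the line with the highest level of both LAMC1 and LAMC3. LAMC3 passed the filter on low values through MCC13 alone, so the filter favoured its difference.

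**Figure D4:**
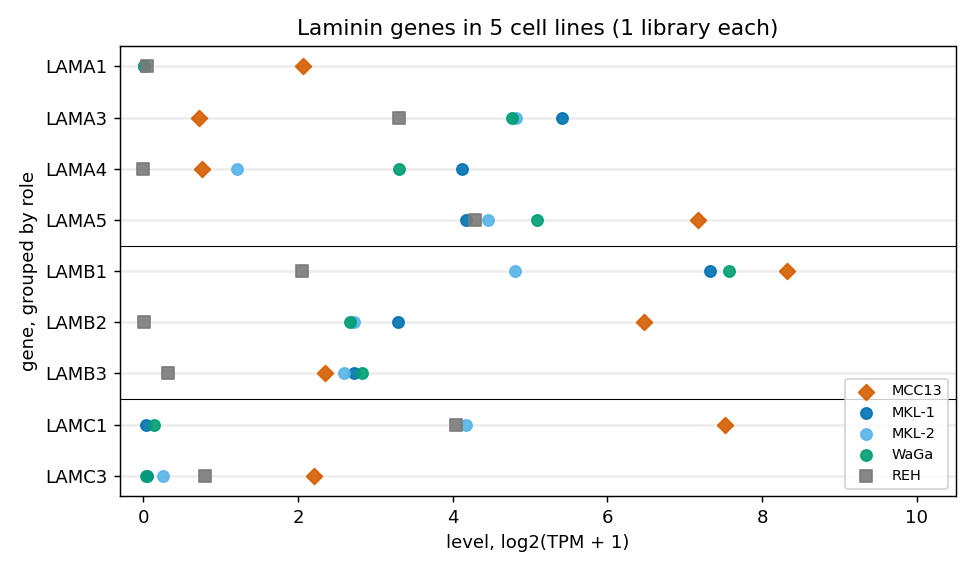
Levels of 9 laminin genes that reached 1 TPM in any line, as log2(TPM + 1) on the horizontal axis, grouped from top to bottom as α, β and γ chains (1 library per line). LAMA3 is lowest in MCC13 among the 5 lines and LAMC1 is highest there, and LAMC1 is near 0 in MKL-1 and WaGa, where LAMB1 is high.

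LAMA3 (ENSG00000053747), the α chain of the epidermal laminin, was the member called lower in MCC13. It stood at 0.642 TPM in MCC13, 26.1 TPM in WaGa, 27.2 TPM in MKL-2, 41.7 TPM in MKL-1 and 8.90 TPM in REH (MCC13 against the other 3: -4.28 ± 0.44 (SE), limma, adjusted p = 0.0244). LAMB3, its β partner, was at 4.11 TPM in MCC13, 6.10 TPM in WaGa, 5.04 TPM in MKL-2, 5.62 TPM in MKL-1 and 0.245 TPM in REH, and did not pass between MCC13 and the others (limma, adjusted p = 0.586). MCC13 thus lay below the other 4 lines for LAMA3. For LAMB3 it was also the lowest of the Merkel cell carcinoma lines, by a smaller gap, and only REH lay below it.

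The other α and β chains were as follows. LAMA5, the α chain found in most mature basement membranes, stood at 143.6 TPM in MCC13, 32.9 TPM in WaGa, 20.9 TPM in MKL-2, 17.1 TPM in MKL-1 and 18.5 TPM in REH (limma, adjusted p = 0.075 for MCC13 against the other 3). LAMB2, the β chain of synapses and kidney, stood at 87.7 TPM in MCC13, 5.34 TPM in WaGa, 5.57 TPM in MKL-2, 8.75 TPM in MKL-1 and 0.009 TPM in REH, and was higher in MCC13 (3.58 ± 0.44 (SE), limma, adjusted p = 0.0351). LAMA4, the α chain of blood vessels, ran the other way without passing, at 0.683 TPM in MCC13, 8.89 TPM in WaGa, 1.32 TPM in MKL-2 and 16.4 TPM in MKL-1, and a listed 0 in REH. LAMA1, the embryonic α chain, stood at 3.17 TPM in MCC13, 0.0025 TPM in WaGa, 0.0056 TPM in MKL-2, 0.0043 TPM in MKL-1 and 0.033 TPM in REH (2.05 ± 0.12 (SE) against WaGa, MKL-2 and MKL-1, limma, adjusted p = 0.00941). So MCC13 held LAMA5 and LAMA1 as α chains above 1 TPM, and WaGa, MKL-2 and MKL-1 held LAMA3, LAMA4 and LAMA5. LAMA1 passed the filter on low values through MCC13 alone, so the filter favoured its difference.

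Of 13 known laminin trimers, all 3 chains were at 1 TPM or more for 5 in MCC13, none in WaGa, 6 in MKL-2, none in MKL-1 and 2 in REH. At 0.5 TPM the numbers were 13 in MCC13, 0 in WaGa, 8 in MKL-2, 0 in MKL-1 and 2 in REH, because LAMA2, LAMA3 and LAMA4 lay between 0.614 and 0.683 TPM in MCC13. For the α5β1γ1 trimer, the lowest chain was LAMA5 at 143.6 TPM in MCC13, LAMC1 at 0.021 TPM in MKL-1, LAMC1 at 17.1 TPM in MKL-2, LAMC1 at 0.0997 TPM in WaGa and LAMB1 at 3.14 TPM in REH. MKL-1 and WaGa thus had no complete trimer of the 13 with summed laminin levels of 249 and 269.8 TPM, and MKL-2 had 6 with 105 TPM.

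**Figure D5:**
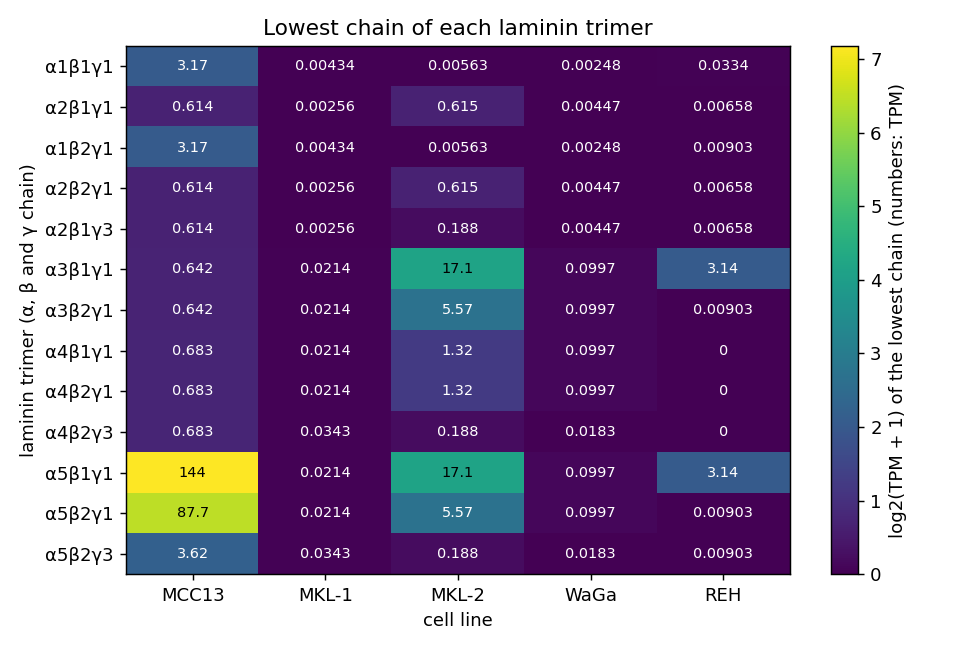
Level of the least abundant chain in each of 13 known laminin trimers (rows, named by α, β and γ chain) in each line (columns, 1 library each), coloured by log2(TPM + 1) with the TPM value printed in each cell. All 13 values of MKL-1 and of WaGa lie below 0.1 TPM, and those of α5β1γ1 are 143.6 TPM in MCC13 and 17.1 TPM in MKL-2.

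Promoter sequences are shown for genes on which the laminin and β5 results turn: the α3 chain, called lower in MCC13, and its β3 partner, which was not called, the β1 and γ1 chains, which parted in MKL-1 and WaGa, and ITGB5. Each is the 250 bases before an annotated start, from RefSeq on GRCh38.p14, on the strand of the gene. Of the 38 symbols, 26 had at least 1 such window, 33 windows in all. Capitals mark matches on either strand, to the AP-1 motif TGANTCA in LAMA3 and LAMB3 and to the GC box GGGCGG in LAMB1, LAMC1 and ITGB5. LAMA3 is from chr18:23872770-23873019 (+), LAMB3 from chr1:209651375-209651624 (-), LAMB1 from chr7:108003162-108003411 (-), LAMC1 from chr1:183023170-183023419 (+) and ITGB5 from chr3:124901419-124901668 (-). LAMB3 and ITGB5 each had 3 windows, of which the first with a match is shown.
LAMA3: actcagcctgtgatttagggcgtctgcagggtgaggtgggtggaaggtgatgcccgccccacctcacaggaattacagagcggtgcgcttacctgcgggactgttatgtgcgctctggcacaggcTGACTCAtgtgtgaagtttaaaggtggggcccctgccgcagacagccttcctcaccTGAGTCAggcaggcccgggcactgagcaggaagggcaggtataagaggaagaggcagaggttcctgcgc
LAMB3: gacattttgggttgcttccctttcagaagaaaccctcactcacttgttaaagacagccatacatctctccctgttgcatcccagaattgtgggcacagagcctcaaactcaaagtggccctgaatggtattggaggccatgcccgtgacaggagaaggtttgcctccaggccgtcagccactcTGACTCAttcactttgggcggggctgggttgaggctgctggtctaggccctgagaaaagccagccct
LAMB1: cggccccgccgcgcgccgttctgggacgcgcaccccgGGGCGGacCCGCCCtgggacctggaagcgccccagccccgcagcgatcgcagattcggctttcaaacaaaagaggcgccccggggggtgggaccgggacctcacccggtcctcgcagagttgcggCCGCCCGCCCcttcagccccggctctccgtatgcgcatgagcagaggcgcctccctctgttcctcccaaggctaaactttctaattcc
LAMC1: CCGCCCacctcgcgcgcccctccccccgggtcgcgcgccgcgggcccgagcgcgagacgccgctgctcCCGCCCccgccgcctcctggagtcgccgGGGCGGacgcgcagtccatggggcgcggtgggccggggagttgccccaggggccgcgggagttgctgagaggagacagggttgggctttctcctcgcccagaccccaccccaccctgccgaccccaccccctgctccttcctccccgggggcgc
ITGB5: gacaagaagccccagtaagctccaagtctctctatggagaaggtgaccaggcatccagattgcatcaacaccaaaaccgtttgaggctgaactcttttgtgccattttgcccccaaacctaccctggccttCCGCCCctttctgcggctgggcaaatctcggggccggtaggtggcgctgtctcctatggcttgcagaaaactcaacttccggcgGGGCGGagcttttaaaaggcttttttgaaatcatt

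The AP-1 motif stood in 2 of the 33 member windows (6.06%), those of LAMA3 and LAMB3, beside 6.57% of all 35116 windows. LAMA3 held 2 matches and LAMB3 held 1. The GC box stood in 51.5% of member windows and 42.6% of all windows, with 4 matches in LAMB1 (2 of them overlapping), 3 in LAMC1 and 2 in ITGB5. The part of these GC boxes in the levels of LAMB1 and LAMC1 was not tested. The TEAD motif GGAATG stood in 12.1% of member windows (ITGA10, ITGA5, ITGB1 and LAMA2) and 11.9% of all windows. A match describes the letters of a window and no binding was measured.

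The 4 Merkel cell carcinoma lines were also compared with REH over 22250 genes that reached 1 TPM in any line. This comparison shares libraries with the one above. Of the 29 tested members, 1 passed (limma), beside 5.24% of all tested genes (1.09% higher and 4.15% lower). ITGAM was below the REH level in the Merkel cell carcinoma libraries, and 0 members passed upward. At unadjusted p under 0.05 there were 7 of the 29 members, beside 18.6% of all tested genes. Since 12 of the 29 were under 1 TPM in REH, they passed the filter on low values through the Merkel cell carcinoma lines alone. The median difference of the members was 0.67, beside 0.18 over all tested genes. All 4 Merkel cell carcinoma lines lay above REH for 12 members, beside 27% of all tested genes, and below it for 4 (ITGA4, ITGAE, ITGAM and ITGB7), beside 25.6%. These 4 genes all encode subunits of leukocyte integrins, but other such genes did not share the pattern. ITGB2 was higher in MCC13 (21.5 TPM) than in REH (11.9 TPM), and ITGAL, ITGAX and ITGAD were at or below 0.745 TPM in REH.

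ITGAM, the α subunit of the myeloid receptor Mac-1, stood at 1.41 TPM in MCC13, 0.030 TPM in WaGa, 0.608 TPM in MKL-2 and 0.124 TPM in MKL-1, against 22.02 TPM in REH (-3.98 ± 0.62 (SE), limma, adjusted p = 0.0411). Its partner ITGB2 was at 11.9 TPM in REH, so that both chains of αMβ2 passed 5 TPM there. The call was lost with a pseudocount of 0.1 (limma, adjusted p = 0.168) and when WaGa, MKL-2 or MKL-1 was dropped. Of 5 myeloid markers 1 reached 1 TPM in REH, CSF1R at 17.5 TPM, and CD14, LYZ, FCER1G and TYROBP were below 0.4 TPM. The neighbouring leukocyte genes ITGAX and ITGAD, next to ITGAM on chromosome 16, were at 0.001 and 0.033 TPM in REH, and ITGAL, the α subunit of the lymphocyte receptor LFA-1, was at 0.745 TPM.

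ITGAE, the αE subunit that lymphocytes use to bind E-cadherin, stood at 35.7 TPM in MCC13, 29.2 TPM in WaGa, 18.9 TPM in MKL-2 and 32.3 TPM in MKL-1, against 62.1 TPM in REH (limma, adjusted p = 0.305). The kinase gene GSG2, which lies inside ITGAE on the opposite strand, had the same order of lines except for MCC13 and MKL-1, at 25.6 TPM in MCC13, 16.5 TPM in WaGa, 12.0 TPM in MKL-2 and 26.7 TPM in MKL-1, against 40.3 TPM in REH. The part of GSG2 in the ITGAE values was not tested. ITGB7, the partner of αE, was below 2 TPM in the Merkel cell carcinoma lines.

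MCC13 stood apart from the other 3 Merkel cell carcinoma lines, so the comparison with REH was also made without it. Of 26 members tested, ITGA3, ITGAV, LAMB2 and LAMB3 were then higher in WaGa, MKL-2 and MKL-1 than in REH, and ITGA4 and ITGAM were lower, beside 13.3% of all tested genes called (4.89% higher and 8.42% lower). The limma adjusted p were 0.0325 for ITGA3, 0.0182 for ITGAV, 0.0469 for LAMB2, 0.0408 for LAMB3 and 0.0108 for ITGA4. All 4 of the members called higher were under 1 TPM in REH, and both called lower were under 1 TPM in WaGa, MKL-2 and MKL-1, so each passed the filter only through the side where it was high and had to differ. With MCC13 included, the adjusted p of the same 5 genes were 0.252, 0.0885, 0.355, 0.105 and 0.167. ITGAV was listed at 0 in REH, which in a table without counts can be a failed estimate. REH is 1 library, and with 4 lines set against 1 the smallest p of an exact permutation test is 0.2.

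Other genes of integrin function were read from lists of their cytoplasmic partners, ligands, basement membrane partners and lateral partners. As with the members, some listed genes reached 1 TPM among the 4 Merkel cell carcinoma lines in MCC13 alone and so had to differ, which makes the counts a description. In MCC13, 10 of 26 tested cytoplasmic partners were called higher than in the other 3 Merkel cell carcinoma lines, beside the 6.47% of all genes, and 0 were lower (limma, 1 at unadjusted p under 0.05), with a median difference of 2.38. ZYX, zyxin of focal adhesions, stood at 445 TPM in MCC13, beside a range of 0.504 to 4.07 TPM in the other 3, and PARVA, α-parvin of the ILK complex, at 110.0 TPM and 0.267 to 2.24 TPM. NEDD9, a docking protein downstream of integrins, stood at 44.0 TPM in MCC13, beside a range of 0.351 to 0.961 TPM in the other 3, and FLNA, filamin A, which links integrins to actin, at 2136 TPM and 103 to 136 TPM. The limma adjusted p of these 4 genes were 0.0328, 0.0364, 0.0155 and 0.00987. Of the 10 called, 3 reached 1 TPM in MCC13 alone, NEDD9 among them. Talin TLN1 and kindlin FERMT2, which switch integrins on, were at 375 and 148.5 TPM in MCC13. FERMT2 was not called, with 0.168 TPM in WaGa, 18.5 TPM in MKL-2 and 0.095 TPM in MKL-1, whereas TLN1, at 75.8 to 103 TPM in the same 3 lines, was called (limma, adjusted p = 0.0406).

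Of 20 tested ligands, 6 were higher in MCC13, beside 6.47% of all genes, and 1, CDH1, was lower, beside 2.47% (median difference 1.90). Of the 6, 3 reached 1 TPM in MCC13 alone, FBN1 among them. FN1, fibronectin, stood at 1869 TPM in MCC13, beside a range of 0.442 to 7.04 TPM in WaGa, MKL-2 and MKL-1, and FBN1, fibrillin, at 226 TPM and 0.654 to 0.717 TPM. TGFB2 and TGFB1, whose latent forms αV integrins activate, stood at 115.8 and 157 TPM in MCC13, beside a maximum of 1.56 and 2.91 TPM in the other 3. CDH1, E-cadherin, the ligand of αEβ7, stood at 0.134 TPM in MCC13, beside a range of 7.96 to 10.9 TPM in the other 3 (-3.20 ± 0.41 (SE), limma, adjusted p = 0.038).

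Of 16 basement membrane and laminin partners, 5 were higher in MCC13, beside 6.47% of all genes, and 0 lower (limma, 0 also at unadjusted p under 0.05), with a median difference of 3.84. Of the 5, COL4A1, COL4A2 and NTN4 reached 1 TPM in MCC13 alone. COL4A1 and COL4A2, the network collagen of basement membranes, stood at 793 and 766 TPM in MCC13, beside a maximum of 0.042 TPM in WaGa, MKL-2 and MKL-1. COL18A1 stood at 437 TPM in MCC13, beside a maximum of 2.13 TPM in the other 3, and NTN4, a netrin that binds laminin γ1, at 59.7 TPM and at most 0.109 TPM. NID1, nidogen, which bridges laminin γ1 and type IV collagen, was not called and stood at 59.6 TPM in MCC13, 16.0 TPM in WaGa, 59.4 TPM in MKL-2 and 7.51 TPM in MKL-1. Of 10 lateral partners, 3 were higher in MCC13 (TM4SF1, CAV1 and CD82, at 1136, 625 and 73.3 TPM in MCC13), beside 6.47% of all genes. Lower were 0 (limma, 0 also at unadjusted p under 0.05), beside 2.47% of all genes. The median difference was 1.46, beside -0.30 over all tested genes. TM4SF1 and CAV1 reached 1 TPM in MCC13 alone.

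When the 4 Merkel cell carcinoma lines were set against REH, 5 of 74 tested genes of these lists were called (6.76%), beside 5.24% of all tested genes. BCAR1 and SDC4, the 2 called higher, were under 1 TPM in REH and passed the filter through the Merkel cell carcinoma lines alone, and APBB1IP and ICAM2 passed it through REH alone. Without WaGa, MKL-2 or MKL-1, 0 genes of the whole table were called (limma, 3194 to 3432 at unadjusted p under 0.05). APBB1IP (RIAM) and RASGRP2, which activate leukocyte integrins through RAP1, were at most 0.069 and 4.74 TPM in the Merkel cell carcinoma lines and at 443 and 338 TPM in REH (limma, adjusted p = 0.00572 and 0.0405). ICAM2, a ligand of αLβ2, was at most 0.141 TPM in the Merkel cell carcinoma lines and at 122 TPM in REH (limma, adjusted p = 0.00572). BCAR1, a focal adhesion adaptor, stood at 423 TPM in MCC13, beside a range of 73.2 to 117 TPM in WaGa, MKL-2 and MKL-1, against 0.090 TPM in REH (limma, adjusted p = 0.0408). SDC4, syndecan 4, a co-receptor of α5β1, stood at 77.6 TPM in MCC13, beside a range of 21.3 to 69.9 TPM in WaGa, MKL-2 and MKL-1 and was listed at 0 in REH. The leukocyte kindlin FERMT3 did not pass, at 7.17 TPM in MCC13, 6.40 TPM in WaGa, 1.73 TPM in MKL-2 and 51.9 TPM in MKL-1, against 297 TPM in REH.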

How the data were processed

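RNA of 5 cell lines was sequenced with 1 library each, after oligo-dT enrichment and with a directional kit, per the labels' protocols. The authors deposited TPM values for 57905 genes. STAR 2.4.5b, SAMtools 0.1.19, StringTie 1.3.5 and bcl2fastq 2.20 are named, per the submitters' processing notes, and so are GRCh37 and hg19. The role of each, and the annotation, are not stated in those notes. Since TPM keeps no depth, no counting error can be given, and 1 column of the table that matched no sample was not used. Nor were the deposited PAX5 exon values.

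Values were transformed to log2(TPM + 1) and tested 2-sided over all genes reaching 1 TPM in any line compared, using limma 3.58.1 (R 4.3.3) with a trended variance prior, with 2 residual degrees of freedom between Merkel cell carcinoma lines and 3 against REH. Differences on this scale understate changes of low genes, and p measures the spread between lines. Members and lists were chosen with earlier results of these data known, and the αβ pairs and laminin trimers are a textbook list. The counts and sums cover all members, of which 1 is not reported here by itself or in the trimers. All members at 1 TPM or more in any line are named, and from each list up to 4 called genes with the largest difference. TLN1, FERMT2, NID1, FERMT3, VCAM1, JAM2, EDIL3, THBS1, AGRN and HSPG2 were named after their values were seen. Overlapping and neighbouring genes came from GENCODE 29, without its coordinates. Alternatives were other pseudocounts (0.1 and 5), filters, scalings, no variance trend and leaving out each line.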

Additional observations from a re-analysis of the deposited data

Results flagged for a closer look

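Among the 4 Merkel cell carcinoma lines, a line was taken as standing apart when its gap to the nearest other line passed Dixon's critical share of the range for 4 samples on the log2(TPM + 1) scale. Of 28 members examined, 7 had such a line, 6 of them MCC13, and chance gives about 1 in 20 such groups. Of all 20698 tested genes, 14% had such a line and 9.52% had MCC13 as that line, so gaps of this kind in MCC13 run through the whole table. MCC13 stood apart upward for ITGB5 (222 TPM), LAMB2 (87.7 TPM), ITGA1 (4.71 TPM), LAMC3 (3.62 TPM) and LAMA1 (3.17 TPM), and downward for LAMA3 (0.642 TPM). All 6 are among the 10 members called in MCC13, so these gaps are no separate evidence. ITGB5, ITGA1, LAMC3 and LAMA1 also passed the filter on low values through MCC13 alone. MKL-2 stood apart upward for ITGB7 (1.88 TPM, against 0.263 TPM in MCC13, 0.187 TPM in MKL-1 and 0.120 TPM in WaGa).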

How the results depend on the processing

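Of the 10 members called in MCC13, all 10 passed with quantile normalization, without mitochondrial genes in the total, without the variance trend and with a pseudocount of 5, which added ITGA11, ITGAV and ITGB2. With a pseudocount of 0.1 the members called higher numbered 4, with LAMA3 still lower. Without a filter, 9 of the 10 were called (ITGA2 was not), and ITGAX and ITGB6 were added. A mean of 5 TPM or more left out ITGA1, ITGA2, LAMA1 and LAMC3 untested, kept the other 6 calls and added ITGAV and ITGB2 (limma, adjusted p = 0.0497 and 0.047). Without MKL-1, MKL-2 or WaGa the number of members called was 0 to 0, higher and lower alike. No called direction reversed. Against REH, 1 member was higher with a pseudocount of 0.1 (ITGAV), without a filter and without the variance trend (LAMB3 in both). In the same comparison 0 members were lower with a pseudocount of 0.1 and at a mean of 5 TPM or more, and 2 without a filter. The filter on a mean of 5 TPM left ITGAM untested. Leaving out 1 Merkel cell carcinoma line in turn gave 0 to 4 members higher and 0 to 2 lower, the 4 and 2 without MCC13. Over all genes, 1340 were called higher and 512 lower in MCC13, against 2807 and 505 without a filter, 543 and 624 at a mean of 5 TPM or more, and 0 without WaGa, MKL-2 or MKL-1 (limma, 4414 to 4978 at unadjusted p under 0.05). Against REH, 243 were higher and 923 lower, with 403 and 482 at a pseudocount of 0.1, 151 and 1372 at 5, 348 and 3346 without a filter, 160 and 128 at a mean of 5 TPM, 230 and 614 without the variance trend, 1038 and 1790 without MCC13, and 0 without any other line (limma, 3194 to 3432 at unadjusted p under 0.05). Without a filter, 602 genes were called higher and 2 lower in MKL-2, against 0 with it (limma, 638 at unadjusted p under 0.05). The median over all genes was -0.30 for MCC13 and 0.18 against REH, and -0.13 and 0.03 after quantile normalization. At 5 TPM, complete integrin pairs numbered 3 in MKL-1, 4 in MKL-2 and 5 in REH, and complete laminin trimers 2 in MCC13 and 0 in REH, and at 0.5 TPM MCC13 had 13 trimers. Summing ITGB1 with ITGB1P1, chosen after seeing the data, gave 2.56 for MCC13 (limma, adjusted p = 0.0843). The cause of these shifts was not tested. No paired analysis was possible because the labels give the lines no shared replicate numbers.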

Other observations

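Besides LAMC1, several genes on the lists were highest in MCC13, with MKL-2 above MKL-1 and WaGa. NID1 and FN1 had this order, and JAM2 and FERMT2 are given as examples. Other listed genes highest in MCC13 had another line next, such as WaGa for AGRN and MKL-1 for HSPG2. How often each order occurred over the lists was not counted. JAM2, a junction protein that binds α4β1, stood at 18.7 TPM in MCC13, 0.116 TPM in WaGa, 7.94 TPM in MKL-2 and 0.173 TPM in MKL-1, with 7.997 TPM in REH. For FERMT2, too, MKL-2 lay between MCC13 and the other two, with 6.796 TPM in REH. JAM2 and FERMT2 were picked after their values were seen, and with 1 library per line the difference of MKL-2 from MKL-1 and WaGa was not tested. EDIL3, an RGD-bearing ligand of αV integrins, stood at 178 TPM in MCC13, 38.5 TPM in WaGa, 5.02 TPM in MKL-2 and 18.6 TPM in MKL-1 and was listed at 0 in REH, where ITGAV was also listed at 0. THBS1, thrombospondin, was the most abundant listed ligand at 3987 TPM in MCC13, beside 7.37 to 44.9 TPM in WaGa, MKL-2 and MKL-1 and 0.014 TPM in REH, and was not called.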
